A study of Homo sapiens with 23 samples.

Results

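NODAL, GDF3, TDGF1, FOXH1, LEFTY1, LEFTY2, CER1 and SMAD7 are genes of the NODAL signaling pathway, taken as a named list. No measured value entered the rule, but the list was chosen with earlier results of these data known. These genes were 8 of the 36084 genes with estimated RNA counts. Their RNA was read from 6 RNA-seq libraries, and their transcript start sites were searched for OCT4, YY1 and H3K9me3 ChIP-seq peaks whose nearest edge lay within 20 kb. All samples came from NCCIT, an embryonal carcinoma cell line with stem-like features. SCi-NCCITs are NCCITs with tetracycline-inducible dCas9-KRAB, a nuclease-dead Cas9 fused to a repressive domain, and with 2 constitutive sgRNAs against SVA transposons, made by transfection of piggyBac vectors and selection of stable clones. They were sampled without doxycycline or after 72 hours with 2 µg/mL doxycycline, which induces dCas9-KRAB. Both conditions carried the same vectors and sgRNAs. The authors state that the sgRNAs also target sequences of another transposon family, LTR5Hs. RNA was measured in 3 libraries per condition, YY1 and H3K9me3 in 2 and OCT4 in 1, and H3K9me3 also in 1 library of parental NCCITs. Doxycycline was not given to NCCITs lacking dCas9-KRAB or the sgRNAs, so effects of doxycycline itself cannot be told apart from those of dCas9-KRAB.

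NODAL is a secreted ligand of the TGF-beta family that signals through activin receptors together with a membrane-anchored co-receptor of the EGF-CFC family. The receptors phosphorylate SMAD2 and SMAD3, which enter the nucleus with SMAD4 and act with partners such as FOXH1. The pathway helps human pluripotent stem cells keep their undifferentiated state, and in the early embryo it induces mesoderm and endoderm. LEFTY1, LEFTY2, CER1 and SMAD7 inhibit it at different steps, and several of them are themselves induced by the signal.

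The RNA libraries held between 14683468 and 47862394 counts on genes, with the lowest total in no doxycycline replicate 1. ZNF10, the usual source of the KRAB domain, rose from 7.40 ± 0.341 TPM to 1660 ± 258 TPM (SD, n = 3 each) with doxycycline, with no overlap between the groups (log2 fold change 5.19 on the CPM scale, edgeR adjusted p = 5.60e-08). Of the 9 embryonal carcinoma and pluripotency markers listed, TDGF1 among them, all 9 were tested and 5 fell, where 8.49% of all 16370 genes tested did (edgeR's quasi-likelihood test, Benjamini-Hochberg adjusted p under 0.05). Their summed level ran from 1489 to 1673 TPM without and from 1102 to 1249 TPM with doxycycline. POU5F1, which encodes OCT4, had 206 ± 38.6 TPM without and 183 ± 17.7 TPM with doxycycline (SD, n = 3 each, log2 fold change −0.12, edgeR adjusted p = 0.527). YY1 had 46.2 ± 1.83 and 42.0 ± 1.65 TPM, respectively (log2 fold change −0.10, edgeR adjusted p = 0.202). Markers of yolk sac summed to at most 0.731 TPM in any library. Those of definitive endoderm summed to between 2.12 and 2.59 TPM without and between 3.25 and 3.92 TPM with doxycycline, and those of mesendoderm to between 2.03 and 2.58 and between 2.94 and 3.42 TPM, so both sums were low and higher with doxycycline in every library. Of the definitive endoderm markers, GATA6 rose among 5 tested, and of the mesendoderm markers MIXL1 among 3 tested. Neural markers summed to between 39.4 and 46.0 TPM without and between 44.3 and 51.9 TPM with doxycycline, nearly all of it OTX2, which rose (log2 fold change 0.23, edgeR adjusted p = 0.0393). Higher calls made up 8.97% of all genes tested. The part of these markers in the results below was not tested. Markers of other cell types were not all low, since the summed trophoblast markers reached 147 TPM, nearly all of it HAND1, and the stromal markers 1235 TPM, nearly all of it VIM.

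With doxycycline, TDGF1 fell to 45.6% of its level and GDF3 fell to 78.9%. FOXH1, LEFTY2 and SMAD7 did not pass the test. NODAL, LEFTY1 and CER1 had too few counts to be tested. Of the 5 genes that passed the filter on low counts, 2 were called lower, and 0 were called higher. Over all genes tested, 8.49% were called lower and 8.97% higher. The median log2 fold change of the 5 was −0.18, and that of all genes tested was −0.0025. In bulk RNA, fewer cells that express a gene and less RNA per cell cannot be told apart. Nothing in the labels says that the replicates are separate cultures, so the p-values measure the spread between these libraries.

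TDGF1, also named CRIPTO, is the EGF-CFC co-receptor through which NODAL binds the activin receptors (ENSG00000241186, chromosome 3, 46616024 to 46623947, plus strand, hg19). It was the most abundant of the 8 genes in TPM, which is a level per transcript length. The 3 libraries without doxycycline had 192, 186 and 183 TPM, and the 3 with doxycycline had 86.8, 79.7 and 76.9 TPM. The lowest library without doxycycline lay far above the highest library with it. On the CPM scale used by the test (counts scaled to library size), the log2 fold change was −1.13 (standard error 0.0651, edgeR adjusted p = 8.33e-06), with an interval of 2 standard errors from −1.26 to −1.003. Of the genes tested, 1.25% fell more. In the alternatives tried, the log2 fold change stayed between −1.19 and −1.08.

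The fall of TDGF1 RNA was seen in both of its main transcripts. ENST00000296145 had 129, 124 and 124 TPM without and 60.2, 53.1 and 53.9 TPM with doxycycline. ENST00000493282 had 58.0, 57.1 and 54.1 TPM without and 24.3, 24.7 and 20.4 TPM with doxycycline. ENST00000296145 made up 67.2% of the TPM of the gene without and 68.7% with doxycycline, so the makeup of the RNA moved little while its level fell. When the counts of the TDGF1 pseudogene copies were added, the log2 fold change was −1.13. 2 genes overlap TDGF1 on the map and also fell. LRRC2, on the opposite strand, had 1.64, 1.49 and 1.78 TPM without and 0.700, 0.652 and 0.743 TPM with doxycycline (log2 fold change −1.16, edgeR adjusted p = 0.000385). ENSG00000283877, on the same strand, overlaps only the downstream part of TDGF1. It had 4.72, 6.68 and 5.10 TPM without and 1.56, 1.19 and 1.68 TPM with doxycycline (log2 fold change −1.81, edgeR adjusted p = 0.00538). These overlapping genes were looked up after the TDGF1 values were seen. Whether kallisto was run with a strand setting is not given in the sources used here, and how reads of the shared exons were divided was not tested.

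GDF3, a ligand of the same family that also needs an EGF-CFC co-receptor (ENSG00000184344, chromosome 12, 7842380 to 7848371, minus strand), was the second most abundant of the 8. Its libraries had 53.2, 50.4 and 51.2 TPM without and 42.8, 38.7 and 36.4 TPM with doxycycline. The groups did not overlap, as was the case for 37.0% of all genes tested on the CPM scale. The log2 fold change was −0.34 (standard error 0.0770, edgeR adjusted p = 0.0161), with an interval of 2 standard errors from −0.50 to −0.19. The call was lost when no doxycycline replicate 3 (edgeR adjusted p = 0.0608) or doxycycline replicate 2 (edgeR adjusted p = 0.0651) was left out, and the adjusted p ran from 0.00245 to 0.0651 over all alternatives.

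NODAL, the ligand that names the pathway (ENSG00000156574, chromosome 10, 72191692 to 72207707, minus strand), was barely detected. Its libraries had 6, 3 and 7 estimated counts without and 6, 1 and 7 with doxycycline, or between 0.0173 and 0.494 TPM. The groups overlapped. A fit without the filter on low counts gave a log2 fold change of −0.89 with a standard error of 0.70 (edgeR adjusted p = 0.515), so no difference was detectable at this depth. The 5 genes whose CPM followed that of NODAL most closely over the 6 libraries, among 11303 genes that averaged 5 CPM or more, were DMWD, ADCY1, MLXIP, IRS2 and CES2, with Pearson's r from 0.958 to 0.974. None of the 5 passed the test between conditions, and with so few NODAL counts the likeness is a description only.

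**Figure D1:**
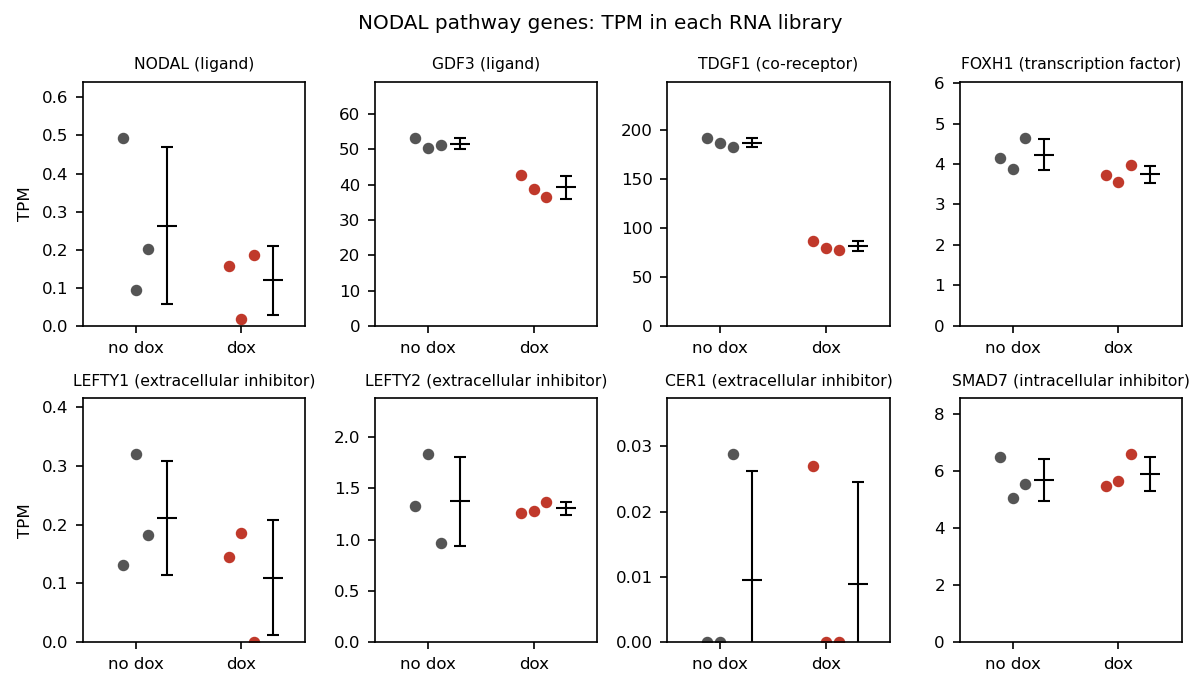
RNA level in TPM of each NODAL pathway gene in the 3 libraries without (grey) and the 3 with doxycycline (red), each panel on its own axis from 0. Bars give the mean and SD of 3 libraries, and the groups are apart for TDGF1 and GDF3.

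FOXH1 is the forkhead transcription factor that brings SMAD2 and SMAD3 to NODAL target genes (ENSG00000160973, chromosome 8, 145698795 to 145701232, minus strand). It had 4.15, 3.88 and 4.64 TPM without and 3.73, 3.55 and 3.96 TPM with doxycycline, and the groups overlapped. The log2 fold change was −0.18 (standard error 0.18, edgeR adjusted p = 0.534), with an interval of 2 standard errors from −0.54 to 0.18. Its sign turned when no doxycycline replicate 1, the library of lowest total, was left out.

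The secreted inhibitors LEFTY1 and LEFTY2, which bind NODAL and its co-receptor, lie side by side on chromosome 1 and are close in sequence, so their reads may be divided with error. LEFTY2 (ENSG00000143768) had 1.33, 1.83 and 0.967 TPM without and 1.25, 1.28 and 1.37 TPM with doxycycline. The values with doxycycline lay within the range of those without. Its log2 fold change was 0.03 (standard error 0.25, edgeR adjusted p = 0.941), with an interval of 2 standard errors from −0.47 to 0.54. LEFTY1 (ENSG00000243709) had 2, 4 and 9 counts without and 8, 10 and 0 counts with doxycycline. The count of 0 in doxycycline replicate 3 allows up to 3 counts, or 0.0643 CPM. With LEFTY1 and LEFTY2 summed as 1 gene, the log2 fold change was 0.01 (edgeR adjusted p = 0.985).

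CER1, a secreted antagonist that binds NODAL (ENSG00000147869, chromosome 9, 14719722 to 14722731, minus strand), had 1 count in no doxycycline replicate 3, 1 count in doxycycline replicate 1 and 0 counts in the other 4 libraries. A count of 0 allows up to 0.204 CPM in the library of lowest total and up to 0.0940 CPM in the others. SMAD7, the inhibitory SMAD that blocks the receptors from inside the cell (ENSG00000101665, chromosome 18, 46446223 to 46477335, minus strand), had 6.51, 5.05 and 5.54 TPM without and 5.47, 5.64 and 6.59 TPM with doxycycline. The SMAD7 groups overlapped, and the log2 fold change was 0.15 (standard error 0.10, edgeR adjusted p = 0.357), with an interval of 2 standard errors from −0.06 to 0.36.

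The order of the levels was the same in both conditions, with TDGF1 highest, followed by GDF3, SMAD7, FOXH1, LEFTY2, NODAL, LEFTY1 and CER1. From TDGF1 down to LEFTY2 and on to NODAL, the ranges of neighbours over 3 libraries did not overlap in either condition. The ranges of NODAL and LEFTY1 overlapped in both conditions, and those of LEFTY1 and CER1 overlapped with doxycycline. In every library, TDGF1 and GDF3 stood above the other 6 genes in TPM.

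Other genes of the pathway were taken from a list of 46, of which 42 passed the filter. Of these, 4 rose and 3 fell, and 17.5% of all genes tested were called in either direction. The median log2 fold change of the 42 was 0.04. Among 7 ligands and processing enzymes, INHBB, a subunit of activin B, rose from between 0.082 and 0.174 TPM to between 0.263 and 0.386 TPM (log2 fold change 1.54, standard error 0.329, edgeR adjusted p = 0.0129). Among 5 receptors and co-receptors, CFC1, the other human EGF-CFC co-receptor, rose from between 8.19 and 11.2 TPM to between 12.3 and 16.4 TPM (log2 fold change 0.67, standard error 0.158, edgeR adjusted p = 0.0198). CFC1 has a near-identical copy, CFC1B, that had 5 counts in 1 library and 0 in the other 5, and how reads were divided between the copies was not tested. CFC1 rose where TDGF1 fell, and the level of CFC1 stayed below that of TDGF1 in every library.

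Among 7 intracellular genes tested, 3 fell and 0 rose, where 8.49% of all genes tested fell. EP300, a histone acetyltransferase that SMADs recruit, had a log2 fold change of −0.38 (standard error 0.106, edgeR adjusted p = 0.0374). TRIM33, which binds SMAD2 and SMAD3, had −0.33 (standard error 0.0849, edgeR adjusted p = 0.0280). ZFYVE9, which presents SMADs to the receptors and is also named SARA, had −0.40 (standard error 0.0575, edgeR adjusted p = 0.00206). SMAD2, SMAD3 and SMAD4 did not pass, with log2 fold changes between −0.13 and 0.01. DRAP1, a corepressor that binds FOXH1, was the most abundant of the 46 at 156 ± 18.5 TPM without and 173 ± 14.3 TPM with doxycycline (SD, n = 3 each, edgeR adjusted p = 0.139). Of 17 inhibitors tested, 0 were called, among them TGIF1, a SMAD corepressor at 125 ± 7.81 and 119 ± 1.68 TPM (SD, n = 3 each, edgeR adjusted p = 0.402).

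Of 6 target genes tested, 2 rose from low levels, where 8.97% of all genes tested rose. GATA6, an endoderm transcription factor, had 0.512, 0.311 and 0.474 TPM without and 1.05, 1.04 and 1.06 TPM with doxycycline (log2 fold change 1.46, standard error 0.209, edgeR adjusted p = 0.00194). MIXL1, a mesendoderm homeobox gene, had 1.84, 1.56 and 1.54 TPM without and 1.98, 2.40 and 2.60 TPM with doxycycline (log2 fold change 0.55, standard error 0.134, edgeR adjusted p = 0.0226). Both genes also stand among the definitive endoderm and mesendoderm markers given above, whose other members did not pass the test or had too few counts for it. The count of 7 calls rests on single libraries, since it fell to 2 without no doxycycline replicate 2, to 3 without doxycycline replicate 2 and to 4 without no doxycycline replicate 3.

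**Figure D2:**
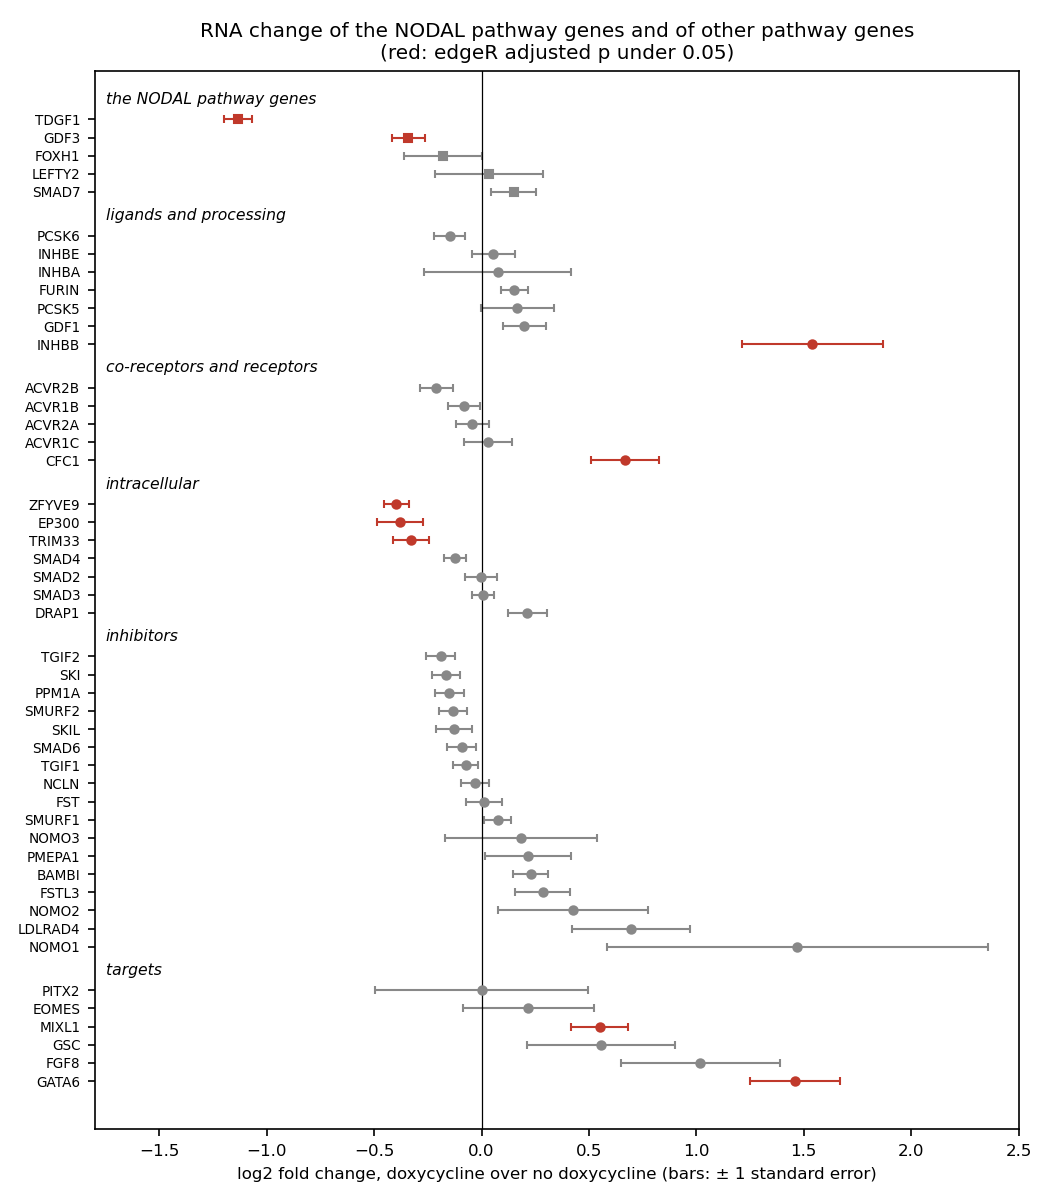
The log2 fold change, doxycycline over no doxycycline, of the 5 tested NODAL pathway genes (squares) and of 42 other pathway genes by role (circles), with bars of 1 standard error. Genes with an edgeR adjusted p under 0.05 are red, and TDGF1 lies lowest at −1.13.

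OCT4, a pluripotency transcription factor encoded by POU5F1, had a peak within 20 kb of a start of all 8 genes without doxycycline and of 6 of the 8 with doxycycline. Among all 20163 protein-coding genes, 69.0% had such a peak without and 36.2% with doxycycline. The peak lists themselves differed, with 50775 OCT4 peaks without and 23352 with doxycycline, and there was 1 library per condition, so the comparison has no replicate error. NODAL and CER1 were the 2 genes with an OCT4 peak without and none with doxycycline, which was the case for 33.7% of all protein-coding genes. The 8 genes had 32 OCT4 peaks between them without and 12 with doxycycline. When each list was held to its strongest 23352 peaks, these counts were 16 and 12. The NODAL peak ranked 41116 and the CER1 peak 24019 of 50775 by q-value, so with lists of equal length neither gene had an OCT4 peak in either condition.

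Of the 32 OCT4 peaks without doxycycline, 13 overlapped an OCT4 peak of the other library, a share of 40.6%, and among all OCT4 peaks this share was 40.1%. In a split made after these values were seen, all 9 of the 32 peaks with a fold enrichment of at least 10 overlapped one, where 94.8% of all such peaks did. Of the 23 weaker peaks, 4 overlapped one, or 17.4%, where 28.0% of all weaker peaks did. Of the 13 overlapping peaks, 10 had a lower fold enrichment with doxycycline and 3 a higher one, and among all overlapping peaks 85.1% had a lower one. The share of all 32 peaks was thus close to that of the whole list, and that of the weaker peaks was lower, with no test made.

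SMAD7 had the strongest OCT4 peak, with its summit 9092 bp upstream of the start, between genes. It spanned chr18:46485711-46487143 and had a fold enrichment of 81.3 without doxycycline, rank 30 of 50775 by q-value. With doxycycline the overlapping peak had 63.4, rank 25 of 23352. A further SMAD7 peak 17.9 kb upstream had 15.2 without and 15.7 with doxycycline. Near LEFTY1, a peak 10.4 kb upstream of the nearest start had 38.0 without and 45.7 with doxycycline, and one 1.27 kb upstream had 26.1 and 15.9. LEFTY2 had a peak 4501 bp upstream with 27.0 and 31.1. The 4 of the 32 OCT4 peaks with the highest fold enrichment lay near SMAD7, LEFTY1 and LEFTY2, and were found in both libraries. The RNA of these genes did not pass the test or was too low for it. By q-value without doxycycline, a GDF3 peak (rank 1103) stood above that of LEFTY2 (rank 1372) and the LEFTY1 peak 1.27 kb upstream (rank 1459).

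The 2 genes whose RNA fell had OCT4 peaks of lower fold enrichment with doxycycline. So had SMAD7 and FOXH1, whose RNA did not pass the test. The SMAD7 peaks 571 and 2204 bp from the nearest start went from 7.90 to 4.435 and from 7.39 to 2.78. The most distant SMAD7 peak, given above, was slightly higher with doxycycline. In GDF3, an intron peak 1015 bp from the start had 20.2 without and 12.02 with doxycycline. Within 1 kb of a start, GDF3, TDGF1 and SMAD7 had an OCT4 peak in both libraries, 3 of the 8 genes, where 7.72% of all protein-coding genes did. In TDGF1, a peak with its summit 102 bp from the nearest start had 9.09 without and 4.65 with doxycycline. The 3 TDGF1 peaks further away that overlapped one with doxycycline went from 14.8 to 5.82, from 14.8 to 4.87 and from 5.60 to 4.26. TDGF1 had 10 OCT4 peaks without and 3 with doxycycline inside the 20 kb window, the most of the 8 genes without doxycycline. At FOXH1, the nearest OCT4 peak lay 8689 bp upstream, in an intron of PPP1R16A, with 11.6 and 6.49. NODAL had a single peak 10895 bp upstream with 4.57, and CER1 one 39 bp upstream with 6.24, and neither had a peak with doxycycline. As lower fold enrichment was common to most of the list, the part of this in the RNA of TDGF1 and GDF3 was not tested.

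The sequence around 5 of these summits is shown because they span the strongest OCT4 peak of the 8 genes, and peaks of the 2 genes whose RNA fell and of the 2 genes that had none with doxycycline. For each gene, the peak of lowest q-value without doxycycline was taken among those whose nearest start was of that gene. The stronger TDGF1 peaks, with 14.8 without doxycycline, lay nearest to a start of LRRC2 and are not shown. Each window holds 60 bases on either side of the summit in hg19, plus strand, and that of CER1 was cut before the first exon. The windows are chr18:46486367-46486487 for SMAD7, chr12:7847296-7847416 for GDF3, chr3:46619076-46619196 for TDGF1, chr10:72218542-72218662 for NODAL and chr9:14722732-14722830 for CER1. Both strands were searched for the octamer-type motif ATGCNAAT, the SOX-type motif CATTGT, the FOXH1-type motif AATNCACA and the YY1-type motif CCATNTT, which do not overlap in these windows, and matches are in capitals.
SMAD7: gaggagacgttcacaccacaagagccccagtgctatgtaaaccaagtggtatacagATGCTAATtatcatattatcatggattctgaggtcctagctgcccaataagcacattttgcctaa
GDF3: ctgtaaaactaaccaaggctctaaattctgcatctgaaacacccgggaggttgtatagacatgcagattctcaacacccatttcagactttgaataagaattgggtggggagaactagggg
TDGF1: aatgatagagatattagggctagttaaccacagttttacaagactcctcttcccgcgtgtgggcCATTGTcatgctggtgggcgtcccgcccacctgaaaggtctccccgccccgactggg
NODAL: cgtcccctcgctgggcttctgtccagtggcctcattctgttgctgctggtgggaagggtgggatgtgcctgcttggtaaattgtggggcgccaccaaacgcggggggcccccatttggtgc
CER1: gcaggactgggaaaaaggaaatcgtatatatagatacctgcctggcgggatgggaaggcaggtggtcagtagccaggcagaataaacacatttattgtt

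The SMAD7 window held ATGCTAAT, an octamer-type match that begins 4 bp before the summit. Such a match was found in 11.1% of the windows of the same length around all OCT4 summits without doxycycline and in 15.8% with doxycycline. The TDGF1 window held CATTGT, which 13.2% of all OCT4 windows without doxycycline held. The GDF3, NODAL and CER1 windows held none of the 4 motifs. FOXH1-type and YY1-type matches were found in 2.72% and 8.30% of all OCT4 windows, respectively, and in none of these 5. A match describes the letters only and does not show which protein was bound.

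**Figure D3:**
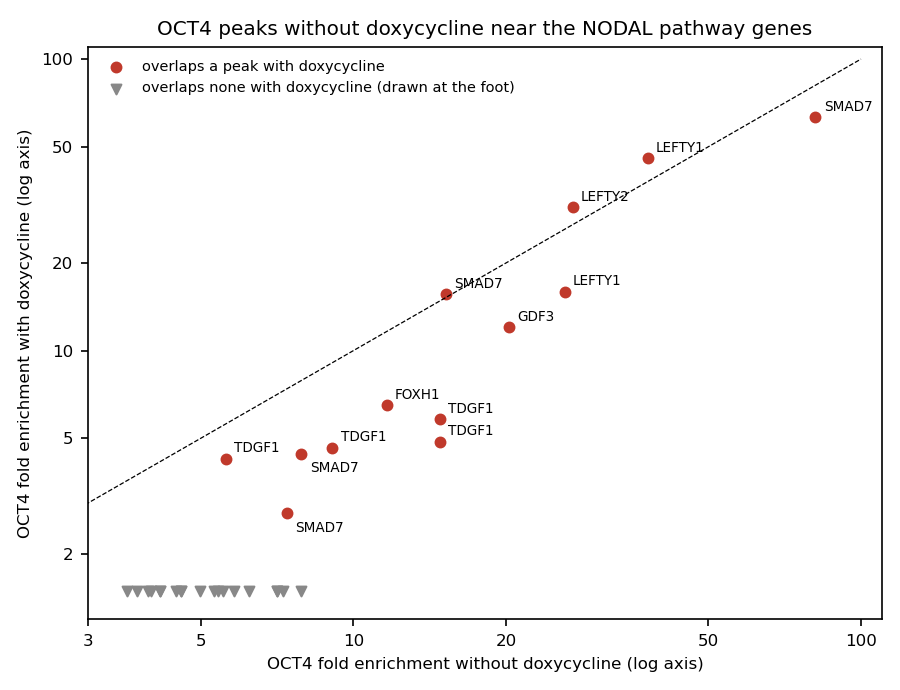
Fold enrichment of the 32 OCT4 peaks near the NODAL pathway genes without doxycycline (x, log axis) against that of the overlapping peak with doxycycline (y, log axis), 1 library per condition. The dashed line marks equal values, 13 peaks overlap one and 19 do not (triangles), and 3 of the 13 lie above the line.

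YY1, a zinc finger transcription factor that binds promoters and takes part in enhancer-promoter contacts, had a peak within 20 kb of a start of all 8 genes in each of the 4 libraries. This was the case for 78.4% of all protein-coding genes in both libraries without doxycycline and for 85.3% in both with it. The number of YY1 peaks near the 8 genes was 32 and 37 without and 39 and 50 with doxycycline, and the YY1 lists with doxycycline were also longer, with 82005 and 115673 peaks against 56370 and 76098. With 2 libraries against 2, no exact two-sided permutation test can give a p under 0.33, so no test was made. Within 1 kb of a start, 5 of the 8 genes had a YY1 peak in all 4 libraries, namely GDF3, TDGF1, LEFTY1, CER1 and SMAD7, and 52.1% of all protein-coding genes did. NODAL, FOXH1 and LEFTY2 had none within 1 kb in any library.

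TDGF1 has 5 annotated starts. Within 1 kb of these, 1 YY1 site was found in all 4 libraries and the others in 1 to 3. The site found in all 4 lay 92 bp upstream of its nearest start. Its fold enrichment was 7.32 and 9.95 without and 6.57 and 7.30 with doxycycline. The higher value with doxycycline (7.295) lay just below the lower one without (7.317), with no test made. The conditions were also apart at the GDF3, CER1 and NODAL sites given next. Fold enrichment was higher with doxycycline at GDF3, CER1 and the 3′ end of NODAL, and lower at the upstream NODAL site. The share of all YY1 sites that separate in this way was not computed. At the GDF3 start the values were 3.70 and 4.16 without and 5.06 and 4.82 with doxycycline. At the CER1 start they were 6.65 and 4.06 without and 7.71 and 6.66 with doxycycline, although CER1 RNA was at the limit of detection. NODAL had 2 YY1 sites in all 4 libraries, one 12005 bp upstream with fold enrichments of 8.32, 9.58, 7.995 and 8.25, and one in its 3′ end with 4.99, 5.53, 6.00 and 6.98.

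The strongest YY1 site nearest to one of the 8 genes was that of SMAD7, 10.2 kb upstream. In replicates 1 and 2 it had 15.0 and 48.5 without doxycycline, and 18.8 and 54.0 after treatment. The replicates differed from each other by far more than the conditions did. This site lay beside the strongest OCT4 peak of the 8 genes, which overlapped a YY1 peak in both libraries without doxycycline. In all, 12 of the 32 OCT4 peaks overlapped YY1 in both of those libraries, or 37.5%, where 24.3% of all OCT4 peaks did. The strongest YY1 site within the window of FOXH1, with 44.3 and 32.8 without and 44.7 and 42.6 with doxycycline, lay 35 bp from the start of another gene, ZFTRAF1.

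H3K9me3, a histone mark of repressed chromatin that KRAB proteins recruit, was near 2 of the 8 genes, TDGF1 and CER1, in both libraries without and in both with doxycycline, and also in parental NCCITs. Of all protein-coding genes, 60.3% had a peak within 20 kb in both libraries without doxycycline, 56.2% in both with it and 58.9% in parental NCCITs. None of the 8 genes gained a peak, that is, carried one in both treated libraries and in neither untreated one, where 0.605% of all protein-coding genes did. Within 1 kb of a start, none of the 8 genes had an H3K9me3 peak in any of the 5 libraries, and 17.1% of all protein-coding genes had one in at least 1 library. NODAL, GDF3 and SMAD7 had 1 peak each, in no doxycycline replicate 1 only, with fold enrichments of 3.75, 2.55 and 4.14. FOXH1, LEFTY1 and LEFTY2 had none.

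The H3K9me3 peaks around TDGF1 lay in introns of LRRC2, on both sides of TDGF1. Of 10 such sites, 3 were found in all 5 libraries, and 3 others had no peak in parental NCCITs. The nearest of those without a parental peak, 4740 bp upstream, had 3.95 and 5.44 without and 5.56 in 1 of the 2 libraries with doxycycline. The site 12.1 kb upstream had a fold enrichment of 3.43 in parental NCCITs, 7.95 and 6.83 without and 5.19 and 7.33 with doxycycline. The site 13.1 kb downstream had 7.24 in parental NCCITs, 6.36 and 10.2 without and 3.85 and 7.92 with doxycycline. The ranges of the conditions overlapped at both of these sites. At the site 9065 bp downstream they did not, with 4.94 in parental NCCITs, 6.13 and 9.94 without and 4.22 and 5.40 with doxycycline. With 2 libraries against 2 and no scaling for depth, no test was made of this. The share of all H3K9me3 sites that separate in this way was not computed. The H3K9me3 site of CER1, 16.8 kb from its start and on the side of the gene body, had 6.98 in parental NCCITs, 6.04 and 5.59 without and 5.30 and 6.52 with doxycycline.

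**Figure D4:**
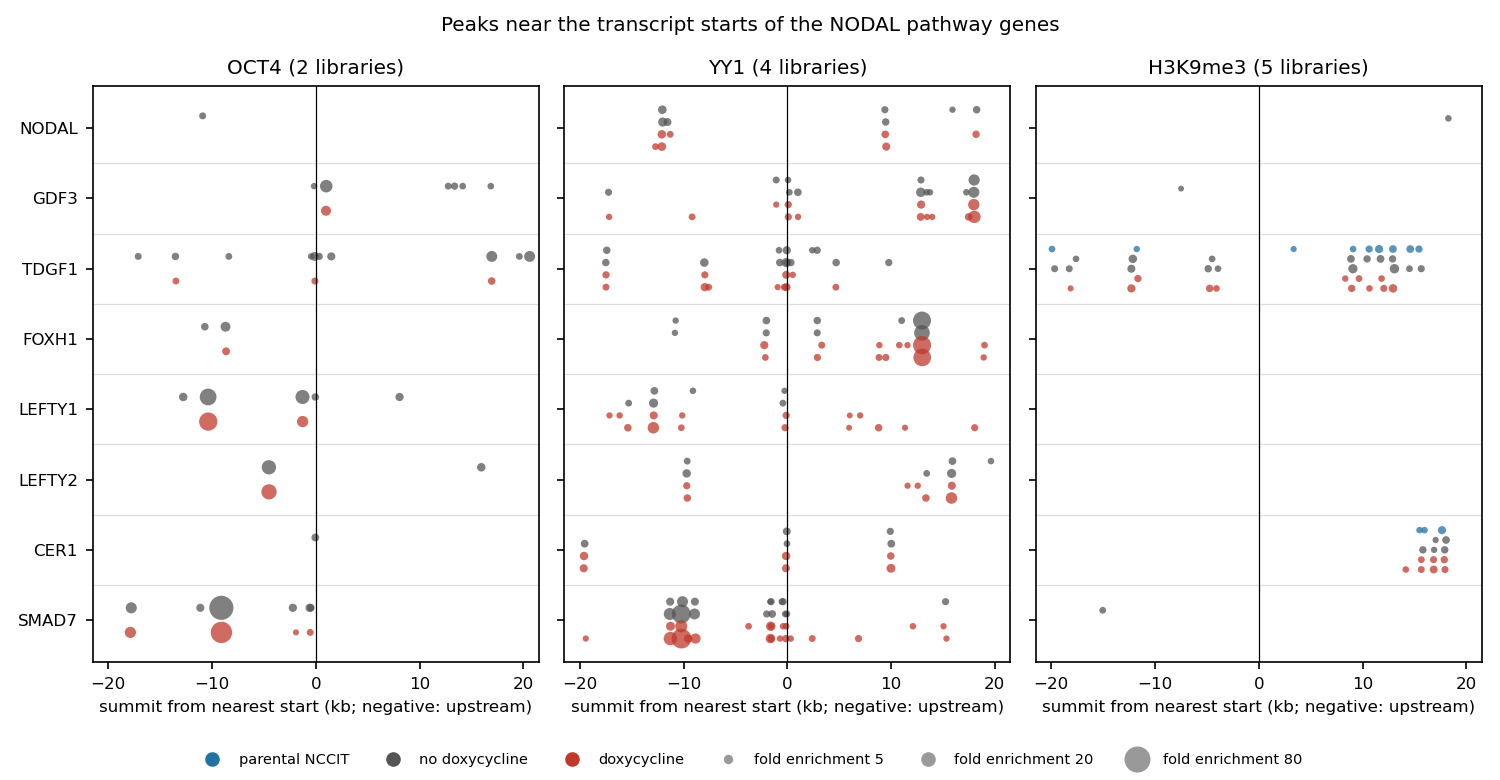
OCT4, YY1 and H3K9me3 peaks near the NODAL pathway genes, by the distance of the summit from the nearest start of the gene in kb (negative values upstream), with 1 line of points per library and point area set by fold enrichment. OCT4 peaks number 12 with and 32 without doxycycline, from lists of 23352 and 50775 peaks, and 12 and 16 with lists of equal length. YY1 is near all 8 genes in every library, as near most protein-coding genes, and H3K9me3 stands away from the starts.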

How the data were processed

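For RNA (poly(A), directional kit), the authors ran kallisto and deposited its estimated counts and its TPM, both by transcript. For ChIP-seq, the deposited lists hold a ratio (fold enrichment over background), −log10 p and q, and a peak score that was not used. Before calling, the authors had trimmed adapters (TrimGalore!), mapped reads with BWA MEM to hg19, kept mapping qualities over 10, removed duplicates and called peaks per library at a 5% FDR. The peak caller and the strand setting of kallisto are not given in the sources used here. Fold enrichment was not scaled for depth between libraries, and the depth of the ChIP-seq libraries is unknown. Peaks were used as called.

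Genes were those of GENCODE v44lift37. Their transcripts' counts were added up, rounded, filtered with filterByExpr, scaled by TMM and tested in R 4.3.3 with edgeR 4.0.16 (glmQLFit, glmQLFTest, Benjamini-Hochberg adjustment, threshold 0.05). DESeq2 1.42.0 was an alternative. Depth was between 14683468 and 47862394 counts per library, and floors of 3 counts cover counting error only. Sums, distances and overlaps (1 bp or more) were computed in Python 3.11.15, and scripts were tested on simulated data. Further alternatives changed the scaling, the low-count filter, the counts, the window (5 or 50 kb), the peak threshold and the libraries. Groups came from the sample labels. The 8 genes and the lists of other genes and motifs were chosen with earlier results of these data known. The text names the 8 genes, the other pathway genes with an adjusted p under 0.05 or a mean of at least 100 TPM, the 5 genes most like NODAL, POU5F1, YY1 and ZNF10. HiChIP contacts from 6 samples were not used, since their columns could not be assigned to conditions.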

Additional observations from a re-analysis of the deposited data

How the results depend on the processing

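Of 65 log2 fold changes of the 5 tested genes under the alternatives, 60 kept their direction and their side of the threshold, 3 turned sign and 2 lost the call. The sign of LEFTY2 turned with length-scaled counts (−0.024) and without no doxycycline replicate 3 (−0.26), and that of FOXH1 without no doxycycline replicate 1 (0.020). When each library in turn was left out, the log2 fold change ran from −0.41 to −0.27 for GDF3, from −0.26 to 0.37 for LEFTY2 and from −0.33 to 0.02 for FOXH1. The number of NODAL pathway genes called ran from 1 to 2, of other pathway genes from 2 to 10, and of all genes from 1396 to 3260, against 2858 with all libraries. Length-scaled counts gave 1878 genes. Correlations of deviations between libraries of the same replicate number were 0.128, 0.0799 and −0.000944. Those between different replicate numbers ran from −0.127 to 0.0599. Whether the replicate numbers pair the samples was not tested. With a replicate block, 10 other pathway genes, 3316 genes in all and the same number of NODAL pathway genes, 2, were called. The cause of these changes was not tested.

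Within 5 kb, the OCT4 peaks were 13 without and 6 with doxycycline, and genes with H3K9me3 in every library 1 and 0. Within 50 kb, OCT4 peaks with doxycycline were 17, those without 47, and genes with H3K9me3 numbered 7 in either condition. OCT4 peaks without doxycycline numbered 16 with the same number of peaks per library. Genes with H3K9me3 in every library without doxycycline ran from 2 to 5 when 1 replicate was left out. Differences below the spread of 3 libraries, and those of NODAL, LEFTY1 and CER1, could not be seen at this depth.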
